A study of Mus musculus with 8 samples.

Results

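The genes described here encode the subunits, activators and assembly chaperones of the proteasome, measured in the left ventricle of 8 mouse hearts. Members were all genes whose symbol begins with Psma, Psmb, Psmc, Psmd or Psme and that had a probe set naming that gene alone, each read from its brightest probe set. This gave 43 genes on 76 probe sets, out of 12393 genes with such a probe set on the array. A gene was analysed further where its signal reached 121, the median of all values, on at least 2 arrays, which kept 41 of the 43 members and 8195 genes in all. The members not kept were Psma8, an alpha subunit known from testis, whose highest signal was 59.2, and Psmc3ip, a meiotic recombination factor that shares the symbol's first letters only, at 34.7 to 89.5. Of the 41, 31 encode constitutive subunits (7 of the alpha ring, 7 of the beta ring, 6 ATPases and 11 other subunits of the 19S particle) and 3 encode the immunoproteasome's catalytic subunits. The others were the activators Psme1, Psme3 and Psme4, the chaperones Psmd5, Psmd9 and Psmd10, and Psme3ip1, whose product binds the Psme3 protein and is no subunit.

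The proteasome degrades proteins that carry ubiquitin chains. Its 20S core is a barrel of stacked alpha and beta rings with the proteolytic sites inside, and the 19S particle on its ends recognises, unfolds and feeds in the substrates. Interferon-gamma induces the beta subunits Psmb8, Psmb9 and Psmb10, which replace Psmb5, Psmb6 and Psmb7 to form the immunoproteasome, the form dominant in leukocytes and tied to the supply of peptides for MHC class I. In heart muscle the constitutive form prevails, and it removes damaged and surplus contractile proteins.

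The hearts came from male mice of 2 strains, C57BL/6 and MRL/MpJ, the latter known for closing ear wounds without a scar, aged 2 to 4 months. Each strain was sampled untreated and at 3, 30 and 60 days after LAD ligation, the tying of the left anterior descending branch of the coronary artery, which causes an infarct. Each combination of strain and time was measured on 1 array, and the labels do not say whether an array holds 1 animal or a pool. The untreated hearts are not described as sham-operated, so ligation and surgery cannot be told apart.

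Total RNA from the left ventricle was measured, with signals on a linear scale. The 8 arrays' median signals lay between 112.8 and 139.5. The C57BL/6 array of day 30 stood apart, with correlations of 0.844 to 0.877 to the others over all kept genes on the log2 scale, where other pairs reached 0.948. The 9 ventricular muscle markers were present in every array, with summed signals of 134500 to 250900. Leukocyte and macrophage markers (13 of 13 kept) summed to 6074 in C57BL/6 and 4049 in MRL/MpJ untreated hearts and to 7824 to 11540 in ligated hearts. The fitted differences of all 13 were above 0 at each day, with medians of 0.965, 0.786 and 0.773 on the log2 scale at days 3, 30 and 60, and 0 of them passed the test. None of the 8 T and NK cell markers on the array passed the signal filter. Fibroblast markers (7 of 7 kept) summed to 8914 and 9252 in untreated and 22400 to 55470 in ligated hearts, and Col1a1, Col1a2 and Col3a1 were called higher over all ligated hearts. Atrial muscle markers (4 of 4 kept, 0 called) summed to 4632 and 7307 in untreated hearts and to 9871 to 52360 in ligated hearts. The sum was highest in the C57BL/6 array of day 30 that stood apart. Nppa was the largest part of it in every array, at 28354.5 in MRL/MpJ at day 3 and 17996.2 in C57BL/6 at day 60. In those arrays Myl7, Sln and Myl4 were below their strain's untreated heart, and in the other ligated hearts they were above it. The part of these cells and of atrial tissue in the members' values was not tested. In such bulk tissue, fewer cells of a type and less RNA per cell cannot be told apart.

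Differences are given as log2(signal + 28.6), where 28.6 is the 20th percentile of all values, so they understate changes at low signal. They come from an additive limma model of strain and time over all 8195 genes, whose error is the departure from additivity with 3 residual degrees of freedom. A gene was called at a Benjamini-Hochberg adjusted p under 0.05 over all genes. p-values are thus set against the departure of these arrays from the model and not against replicates. That departure may be technical in part, and it also holds any response over time that differs between the strains.

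None of the 41 members was called in any of the 7 comparisons made. The same limma fits called 0.22% of all genes for the strain difference, 0.195% for all ligated against untreated hearts, 0.0122% for day 30, 0.0366% for day 60, and 0% for day 3, for day 60 against day 3 and for the strain-by-ligation interaction. At an unadjusted p under 0.05, 1 member was found for all ligated hearts (Psme4), where 10.4% of all genes were. Day 3 gave 0 members against 6.53% of all genes. Day 30 gave 3 (Psme4, Psmb7 and Psmb8) against 11%, and day 60 gave 1 (Psmb8) against 10.6%. Day 60 against day 3 gave 2 (Psmb4 and Psmb8) against 6.43%, the strain difference 2 (Psmd13 and Psmd14) against 7.96%, and the interaction 0 against 2.04%. The members' shares were at or below those of all genes in each comparison, so single members are described below by their signals rather than as changed.

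Most proteasome genes varied little from heart to heart. The median standard deviation over the 8 arrays was 0.277 on the log2 scale for the 41 members and 0.263 for the 31 constitutive subunits, against 0.323 for all kept genes. Of the constitutive subunits, 26 of 31 lay below the all-gene median. On the array's signal scale, which is no level per length, they had a median of 1004 against 261.5 for all genes, and brighter probe sets tend to vary less, so the part of signal in this difference was not tested. The steadiest member was Psmd1, a large scaffold subunit of the 19S base, at 832.5 to 953.7 in all 8 hearts (SD 0.0736), followed by Psma1 of the alpha ring at 517.7 to 643.4 (SD 0.104). The widest spread belonged to Psmb9 (SD 0.505), Psmd6 (0.448), Psmd13 (0.444), Psme4 (0.429) and Psmc5 (0.400). Apart from those the naming rule covers, these genes were singled out after their values were seen.

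**Figure D1:**
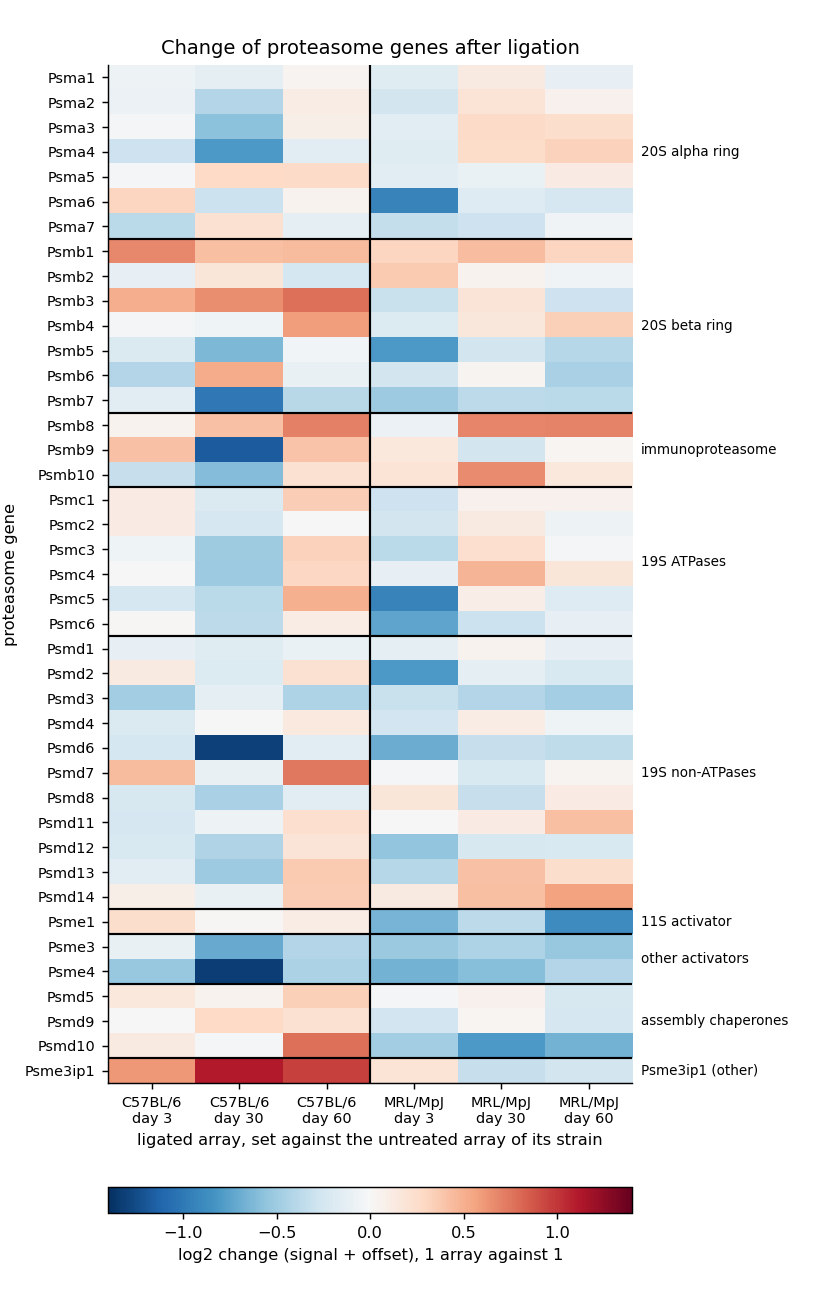
Log2 change of signal + 28.6 in each ligated array against the untreated array of its strain, for the 41 proteasome genes in rows by role (blue lower, red higher, 1 array against 1). Psmd1 is pale in all 6 columns, Psme3 and Psme4 are blue in all 6, Psmb1 is red in all 6, and the C57BL/6 array of day 30 and the MRL/MpJ array of day 3 hold most of the darker blue cells.

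The promoters of the catalytic pairs are shown because Psmb8 and Psmb9 lie close together in the MHC region of chromosome 17 and Psmb10 lies elsewhere, and because interferon-responsive and stress-responsive motifs are known in genes of this family. RefSeq's promoter table (GRCm38.p6) held 36 of the 43 members. The 250 bases before the start were searched on both strands for a pair of GAAA boxes with any 2 bases between them (core of the interferon-stimulated response element), TTCNNNGAA (gamma-activated sequence, bound by STAT proteins), TGACNNNGC (core of the antioxidant response element, bound by Nfe2l1 and Nfe2l2), CCAAT and GGGCGG (GC box). Matches of different motifs may overlap in part. The windows were chr17:34197945-34198194 on the plus strand for Psmb8, chr17:34187331-34187580 on the minus strand for Psmb9, chr8:105938393-105938642 on the minus strand for Psmb10 and chr14:54617996-54618245 on the minus strand for Psmb5, the subunit that Psmb8 replaces. Each is printed 5′ to 3′ along its gene, and capitals mark a match to any of the first 4 motifs.
Psmb8: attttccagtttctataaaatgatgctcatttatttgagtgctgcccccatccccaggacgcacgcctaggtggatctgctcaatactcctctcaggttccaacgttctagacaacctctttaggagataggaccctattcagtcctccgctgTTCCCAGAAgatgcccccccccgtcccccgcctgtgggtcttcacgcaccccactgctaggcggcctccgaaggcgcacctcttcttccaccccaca
Psmb9: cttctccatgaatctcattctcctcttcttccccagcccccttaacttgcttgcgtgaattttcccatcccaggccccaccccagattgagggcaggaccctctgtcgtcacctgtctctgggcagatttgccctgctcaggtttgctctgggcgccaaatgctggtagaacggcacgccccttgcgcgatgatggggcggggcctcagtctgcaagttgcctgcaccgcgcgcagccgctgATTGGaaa
Psmb10: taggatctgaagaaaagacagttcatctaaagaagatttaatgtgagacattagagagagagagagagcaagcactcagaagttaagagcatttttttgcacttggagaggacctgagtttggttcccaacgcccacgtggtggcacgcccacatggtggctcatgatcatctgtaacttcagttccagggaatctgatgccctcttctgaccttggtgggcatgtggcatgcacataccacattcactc
Psmb5: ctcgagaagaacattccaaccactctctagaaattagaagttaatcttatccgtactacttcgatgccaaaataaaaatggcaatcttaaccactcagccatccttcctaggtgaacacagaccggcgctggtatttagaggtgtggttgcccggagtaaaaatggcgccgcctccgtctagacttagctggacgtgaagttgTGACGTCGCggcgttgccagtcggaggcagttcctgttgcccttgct
The gamma-activated letters were found in Psmb8 alone among the 36 members, as TTCCCAGAA at 97 to 89 bases before the start, and in 8.13% of the table's 27025 genes. The antioxidant letters were found in Psmb5 (TGACGTCGC, 47 to 39 bases before the start), Psmb6, Psmc6, Psmd12 and Psmd9 (5 of 36 members), against 11.5% of all genes. The interferon-stimulated letters were found in Psmb3, Psmd4 and Psmd9, against 3.46% of all genes, and in none of the 3 immunoproteasome genes within this window. CCAAT was found in 15 of 36 members against 37.5% of all genes, including Psmb9 on the opposite strand at 8 to 4 bases before the start, and GGGCGG in 21 of 36 against 35.4%, where a gene counts if any of its start sites has a match. A match is a string of letters and not a measured site.

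Psmb8, the immunoproteasome subunit with chymotrypsin-like activity, had its 4 highest signals in the 4 late hearts. Its signal was 177.4 in the untreated C57BL/6 heart and 142.9 in the untreated MRL/MpJ heart. At day 3 it was 184.1 in C57BL/6 and 133.9 in MRL/MpJ, and at day 30 it was 246.0 and 246.1. At day 60 it was 308.0 and 249.0. The 4 hearts of days 30 and 60 did not overlap with the 4 untreated and day 3 hearts. Among the 41 members this held for Psmb8 alone (2.44%), against 1.68% of all genes, and the pattern was picked after the values were seen. The opposite order held for 0 members and 2.57% of all genes. The fitted difference from untreated was 0.55 at day 30 (SE 0.23, adjusted p = 0.449) and 0.70 at day 60 (SE 0.23, 95% interval 0.16 to 1.24, adjusted p = 0.358, limma), and -0.016 at day 3. Both strains had a higher signal than their own untreated heart at days 30 and 60. Leukocyte and macrophage markers summed highest at day 3 in both strains (9542 and 11540), when Psmb8 was near its untreated signal, and the part of these cells in the Psmb8 values was not tested.

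Psmb9, which replaces Psmb6, did not share that order. Its signals were 110.3 and 121.1 in the untreated C57BL/6 and MRL/MpJ hearts, 156.2 and 136.8 at day 3, 33.6 and 97.0 at day 30, and 154.6 and 123.6 at day 60. Only 5 of its 8 values reached 121, so it was read close to the filter. Both day 30 hearts were the lowest of the 8, and the C57BL/6 one of these is the array that stood apart. How many of all genes had this order was not counted. The fitted differences were 0.28 at day 3, -0.71 at day 30 (SE 0.34, adjusted p = 0.470, limma) and 0.21 at day 60.

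Psmb10, which replaces Psmb7, was at 484.0 and 413.8 in the untreated C57BL/6 and MRL/MpJ hearts. Its signals were 380.6 and 476.2 at day 3, 307.6 and 670.5 at day 30, and 563.6 and 463.0 at day 60. The lowest and the highest of the 8 values were both at day 30, 1 in each strain. Fitted differences were -0.067, 0.026 and 0.18 at days 3, 30 and 60, each within its SE of 0.35.

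**Figure D2:**
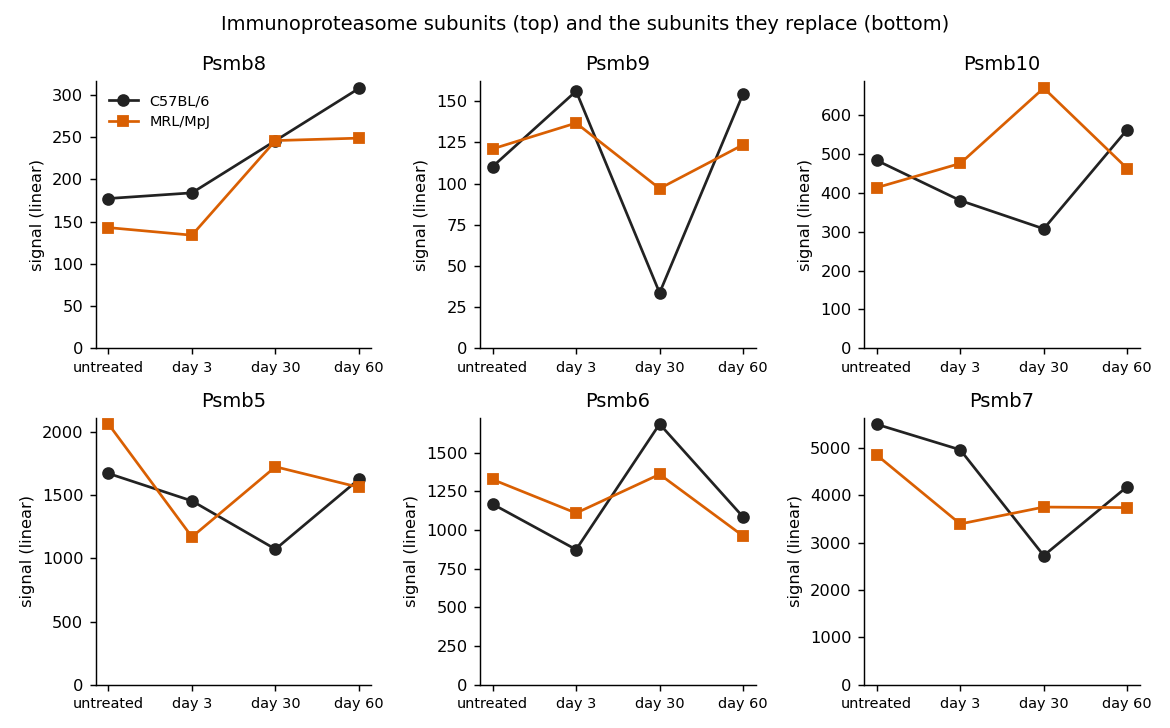
Signal (linear scale from 0) of the immunoproteasome subunits (top) and of the constitutive subunits they replace (bottom), untreated and at days 3, 30 and 60 in equal steps, with 1 point per array and a line per strain. Psmb8 is at 246.0 to 308.0 in the hearts of days 30 and 60 and at 133.9 to 184.1 in the others, while Psmb5 and Psmb7 are lower in each ligated heart than in their strain's untreated heart.

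Of the replaced subunits, Psmb5 carries the chymotrypsin-like site. Its signals were 1670.4 and 2061.2 in the untreated C57BL/6 and MRL/MpJ hearts, 1453.3 and 1168.6 at day 3, 1072.0 and 1723.2 at day 30, and 1625.1 and 1561.0 at day 60. All 6 ligated hearts were below their own strain's untreated heart, but the 2 groups overlapped (-0.39, SE 0.24, adjusted p = 0.618, limma). Psmb7, with the trypsin-like site, was also below its strain's untreated heart in 6 of 6 ligated hearts. For both genes the 3 ligated hearts of a strain share 1 untreated array, so they are not independent. The share of all genes with this order was not counted. Its signals were 5503.4 and 4853.5 untreated, 4964.8 and 3398.9 at day 3, 2730.0 and 3754.9 at day 30, and 4187.4 and 3743.4 at day 60. The C57BL/6 heart of day 3 overlapped with the untreated hearts, and the fitted difference over all ligated hearts was -0.47 (SE 0.23, adjusted p = 0.539, limma). Psmb6, with the caspase-like site, showed no common order. It was at 1167.0 and 1325.9 untreated, 873.3 and 1108.9 at day 3, 1684.1 and 1359.2 at day 30, and 1083.6 and 961.1 at day 60, with a difference of -0.11 (SE 0.21).

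The immunoproteasome subunits and the constitutive set were compared by their fitted differences, since probe sets of different genes share no scale. The mean difference of Psmb8, Psmb9 and Psmb10 minus the median of the 31 constitutive subunits was 0.235 at day 3, 0.0252 at day 30, 0.325 at day 60 and 0.194 over all ligated hearts. In single hearts against their untreated control it was 0.132, -0.251 and 0.332 at days 3, 30 and 60 in C57BL/6 and 0.345, 0.302 and 0.344 in MRL/MpJ. The value was thus above 0 in 5 of the 6 ligated hearts and below 0 in the C57BL/6 heart of day 30. Without that array the day 30 value was 0.286, and without the MRL/MpJ array of day 30 it was -0.153. The 3 hearts of a strain share 1 untreated array, so they are not independent. Without the MRL/MpJ untreated array the value was 0.0728 over all ligated hearts, 0.153 at day 3, 0.174 at day 60 and -0.121 at day 30. Without the C57BL/6 untreated array these were 0.31, 0.368, 0.474 and 0.118. Over all ligated hearts it was also 0.12 without the MRL/MpJ array of day 30, and at day 60 it was 0.197 without the C57BL/6 array of that day. For the strain difference the value was -0.0748, and for the interaction it was 0.289, or 0.118 without either array of day 30. At day 60 most of the gap came from Psmb8 at 0.70, with Psmb9 at 0.21 and Psmb10 at 0.18, and the median of the constitutive subunits was 0.04.

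**Figure D3:**
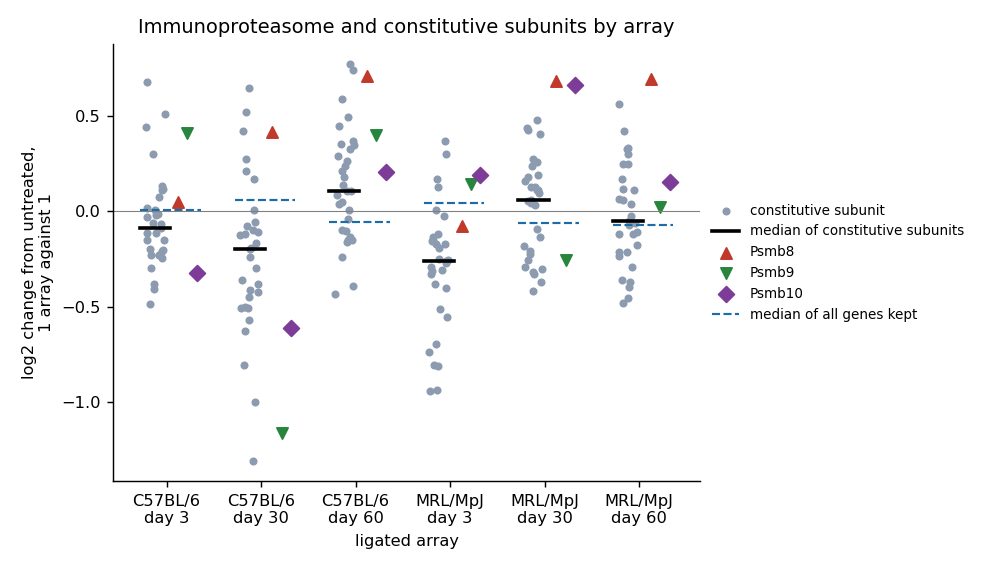
Log2 change from the same strain's untreated array in each ligated array, with grey points for the 31 constitutive subunits, a black line at their median, coloured symbols for Psmb8, Psmb9 and Psmb10, and a dashed line at the median of all kept genes. The mean of the 3 coloured symbols lies above the black line in 5 of 6 arrays and below it in the C57BL/6 array of day 30 (-0.251).

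Most constitutive subunits lay slightly below untreated at day 3, and at day 60 they were split about evenly. At day 3, 26 of 31 had a fitted difference below 0, with a median of -0.17 against 0.0191 for all genes. These included all 7 alpha subunits (median -0.17), all 6 ATPases (median -0.153) and 9 of 11 non-ATPase subunits of the 19S particle (median -0.237), but 4 of 7 beta subunits (median -0.103). At day 30 the median was -0.0696, with 21 of 31 below 0, against -0.00578 for all genes. At day 60 it was 0.04, with 16 of 31 above 0, against -0.064, and it turned to -0.0488 without the C57BL/6 array of day 60. Between day 60 and day 3 the median difference was 0.261, with 27 of 31 higher at day 60, against -0.0597 for all genes. The MRL/MpJ array of day 3 weighed most on both values of that day: without it the day 3 median was -0.0385, and that between day 60 and day 3 was 0.0824. Without the C57BL/6 array of day 3 they were -0.262 and 0.43, and without the C57BL/6 array of day 60 the latter was 0.162. Over all ligated hearts it was -0.0653, with 21 of 31 below 0, and 0.00343 without the C57BL/6 array of day 30. For the interaction it was -0.054, and it was above 0 without any 1 of the arrays of days 3 or 60. These are shifts of many genes read on the same 8 arrays, and no member alone passed the test.

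The day 30 value rested on which array was read. Against untreated, the constitutive median was -0.2 in the C57BL/6 heart and 0.0604 in the MRL/MpJ heart of day 30, where all genes were at 0.0582 and -0.0595. With the C57BL/6 array of day 30 left out, the fitted median was 0.094, and with the MRL/MpJ one left out it was -0.316. At day 3 the medians were -0.0873 in C57BL/6 and -0.259 in MRL/MpJ, and at day 60 they were 0.106 and -0.0535. With 1 array on each side these values have no test. Past 1.5-fold in a single heart, 8 of 41 members were lower and 2 higher in C57BL/6 at day 30, where 16.9% of all genes were lower and 21.1% higher. In MRL/MpJ at day 3, 8 were lower and 0 higher, against 10.9% and 14%. In C57BL/6 at day 60, 6 were higher and 0 lower, against 9.59% and 10.5%. In C57BL/6 at day 3, 2 were higher and 0 lower, against 7.97% and 5.72%. In MRL/MpJ, 2 were higher and 2 lower at day 30, against 9.14% and 10.3%, and 1 was higher and 2 lower at day 60, against 10.8% and 13%.

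**Figure D4:**
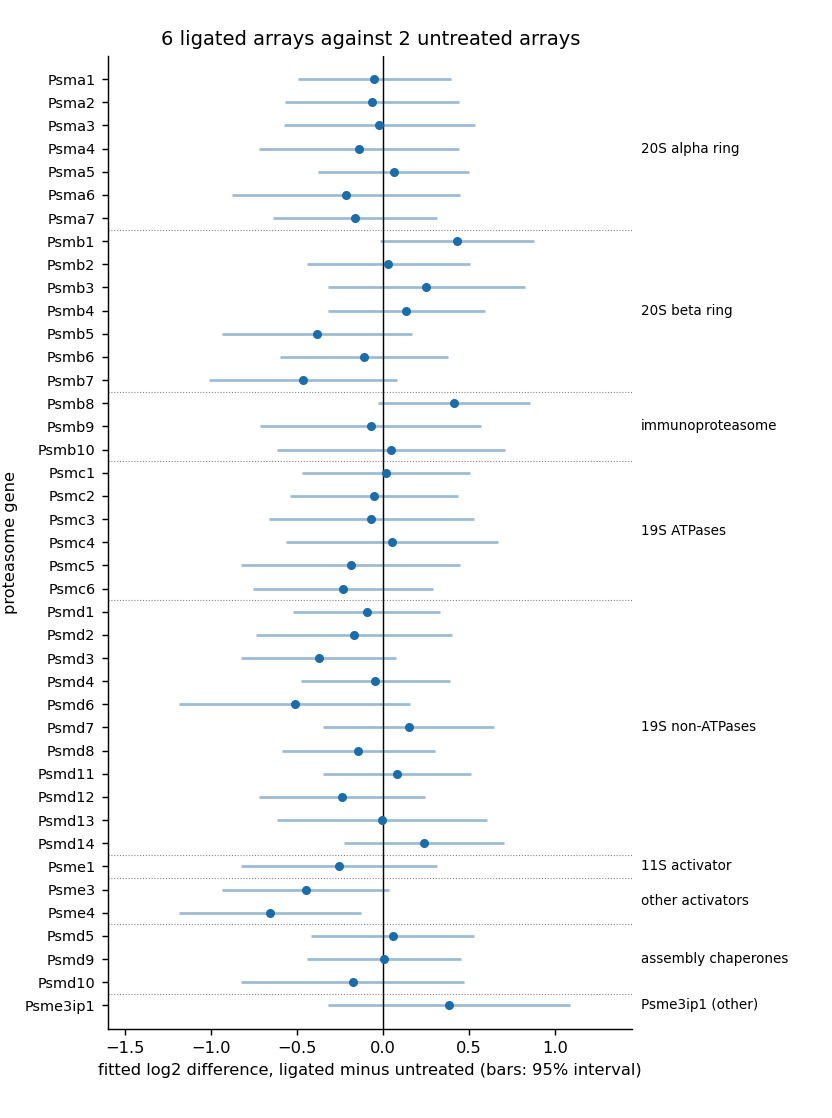
Fitted log2 difference of all ligated against untreated hearts for each of the 41 proteasome genes, grouped by role, with 95% intervals from limma. All intervals but that of Psme4 include 0, Psme4 has the lowest value (-0.66) and Psmb1 the highest (0.43), and no gene passed the adjusted threshold.

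Within the beta ring, Psmb1, the non-catalytic beta 6 subunit, was the member highest after ligation. Its signals were 627.9 and 806.3 in the untreated C57BL/6 and MRL/MpJ hearts, 1021.5 and 998.0 at day 3, 850.1 and 1100.5 at day 30, and 864.5 and 999.9 at day 60. All 6 ligated hearts were above both untreated hearts, which held for 1 of 41 members (2.44%) and for 6.71% of all genes. The fitted difference was 0.43 (SE 0.19, adjusted p = 0.494, limma). A dimmer probe set of Psmb1 did not show this separation. It was at 251.1 and 185.0 untreated, 222.0 and 302.6 at day 3, 411.3 and 193.4 at day 30, and 189.0 and 218.3 at day 60, with a difference of 0.17 over all ligated hearts and -0.077 at day 60. Psmb4, a structural beta subunit, was highest at day 60, at 1885.6 and 1834.2, against 1243.8 and 1453.9 untreated, 1232.8 and 1267.4 at day 3, and 1194.9 and 1623.3 at day 30. Both day 60 hearts exceeded the other 6, an order whose share over all genes was not counted. The difference from untreated was 0.46 (SE 0.24, adjusted p = 0.555, limma). Its dimmer probe set read 260.3 and 279.1 at day 60 against 237.1 and 275.9 untreated, a difference of 0.068. Psmb2 went from 1306.3 and 1671.4 at day 3 to 1193.0 and 1243.7 at day 60 (-0.27), with 1415.4 and 1290.9 untreated and 1594.1 and 1339.5 at day 30. Its day 60 values were the lowest of the 8, close under the MRL/MpJ untreated heart, and the share of all genes with this order was not counted.

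Among the 19S ATPases, which unfold the substrate, Psmc5 had the largest differences at day 3 and between day 60 and day 3. It was at 554.2 and 603.9 in the untreated C57BL/6 and MRL/MpJ hearts, 468.4 and 301.4 at day 3, 419.6 and 646.4 at day 30, and 792.1 and 531.2 at day 60. The MRL/MpJ heart of day 3 was the lowest and the C57BL/6 heart of day 60 the highest, so the strains did not follow each other. The fitted difference was -0.58 at day 3 (SE 0.33, adjusted p = 0.82, limma) and -0.26 without the MRL/MpJ array of day 3. Between day 60 and day 3 it was 0.74 (SE 0.33, adjusted p = 0.768, limma), and 0.42 without that array.

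Of the non-ATPase subunits, Psmd3 and Psmd6, both of the 19S lid, were below both untreated hearts in all 6 ligated hearts on their brightest probe sets. Psmd3 was at 788.2 and 741.8 untreated, 554.5 and 594.3 at day 3, 722.6 and 549.2 at day 30, and 576.6 and 523.8 at day 60, in the order C57BL/6, MRL/MpJ. Its difference was -0.37 over all ligated hearts and -0.46 at day 60 (adjusted p = 0.555, limma). Psmd6 was at 1295.6 and 1421.2 untreated, 1090.4 and 868.3 at day 3, 505.0 and 1126.4 at day 30, and 1156.9 and 1101.4 at day 60. The C57BL/6 heart of day 30 was far below the rest. The day 30 difference of -0.82 (SE 0.35, adjusted p = 0.455, limma) was -0.22 without that array and -1.42 without the MRL/MpJ array of day 30 (adjusted p = 0.0508, limma). The second probe set of Psmd6 had a fitted difference of 0.19 over all ligated hearts. By day it was 0.03 at day 3, -0.019 at day 30 and 0.57 at day 60. In C57BL/6 this probe set was at 233.1 untreated, 170.9 at day 3, 163.6 at day 30 and 390.5 at day 60. Only the day 60 heart of that strain was thus above untreated. All 3 ligated MRL/MpJ hearts (47.5 to 50.8) were above the untreated one (28.8). Every MRL/MpJ value lay below the signal filter, so their order was not read as a direction.

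The activators Psme3 and Psme4 gave the other members below both untreated hearts after ligation. With Psmd3 and Psmd6 they made 4 of 41 members (9.76%), where the pattern held for 7.11% of all genes. Psme4 encodes PA200, a large cap on the 20S core known for acetylated histones as substrates. Its signals were 2160.9 and 2298.2 in the untreated C57BL/6 and MRL/MpJ hearts, 1484.3 and 1441.7 at day 3, 850.0 and 1511.4 at day 30, and 1584.5 and 1728.2 at day 60. The highest ligated heart was thus well below the lower untreated heart. The fitted difference was -0.66 over all ligated hearts (SE 0.23, 95% interval -1.19 to -0.13, adjusted p = 0.367, limma), -0.60 at day 3, -0.96 at day 30 (SE 0.28, adjusted p = 0.314, limma) and -0.42 at day 60. The day 30 value was -0.58 without the C57BL/6 array of day 30 and -1.33 without the MRL/MpJ one (adjusted p = 0.0508, limma).

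Both other probe sets of Psme4 were read as well. The first gave 2255.6 and 1625.3 untreated, 1226.9 and 1088.0 at day 3, 773.8 and 1497.2 at day 30, and 1246.1 and 1631.6 at day 60. The second gave 1695.7 and 1298.3 untreated, 1239.2 and 1039.1 at day 3, 625.7 and 1064.1 at day 30, and 1210.3 and 1348.9 at day 60. In both, the C57BL/6 hearts kept the gap between untreated and ligated. In both, the MRL/MpJ heart of day 60 reached or passed the MRL/MpJ untreated heart, so the separation of all 6 ligated hearts was seen with the brightest probe set only. The lowest of the 8 hearts was the C57BL/6 heart of day 30 in all 3 probe sets.

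**Figure D5:**
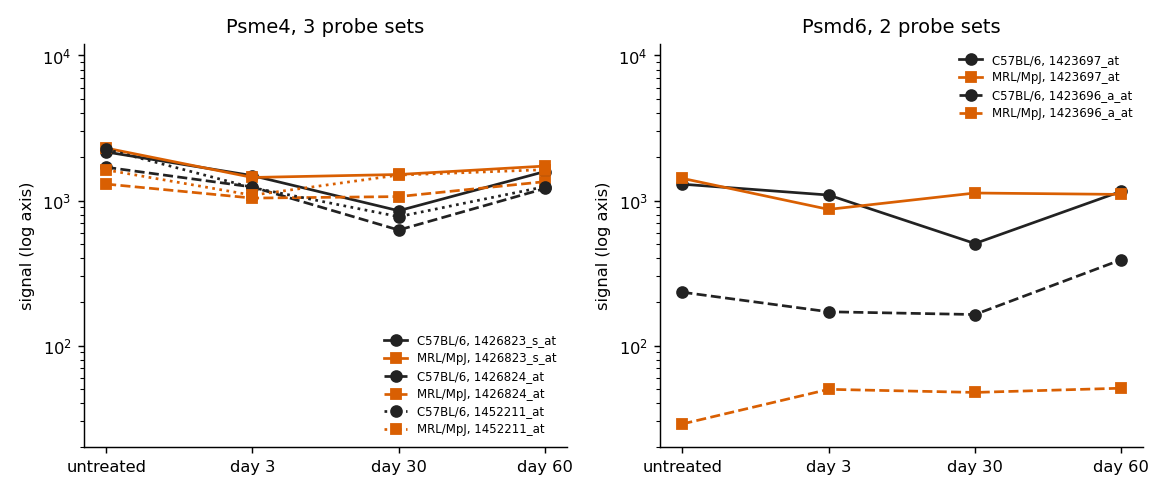
Signal (log axis) of each probe set of Psme4 (left) and Psmd6 (right), untreated and at days 3, 30 and 60, with a line style per probe set and a colour per strain. All 3 probe sets of Psme4 are lowest in the C57BL/6 array of day 30, and the dimmer probe set of Psmd6 is at 28.8 to 50.8 in MRL/MpJ and at 163.6 to 390.5 in C57BL/6.

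Psme3 encodes PA28-gamma, a nuclear activator that acts without ubiquitin. It was at 306.7 and 334.3 in the untreated C57BL/6 and MRL/MpJ hearts, 284.1 and 223.9 at day 3, 176.6 and 240.5 at day 30, and 223.2 and 223.0 at day 60. The nearest ligated heart, C57BL/6 at day 3, was just under the lower untreated heart. Differences were -0.45 over all ligated hearts (SE 0.21, adjusted p = 0.505, limma) and -0.47 at day 60. A dimmer probe set of Psme3, above the filter in 3 arrays, did not separate the groups. It was at 163.7 and 86.9 untreated, 108.0 and 36.3 at day 3, 10.7 and 118.2 at day 30, and 133.9 and 124.1 at day 60. Its differences were -0.52 over all ligated hearts and 0.080 at day 60.

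Psme1, the alpha subunit of the interferon-inducible 11S activator PA28, differed in direction between the strains. In C57BL/6 it was at 1138.6 untreated and at 1351.1, 1151.0 and 1228.6 at days 3, 30 and 60. In MRL/MpJ it was at 1553.7 untreated and at 980.3, 1199.4 and 833.2. The 3 ligated C57BL/6 hearts were above their untreated heart by 0.0152 to 0.241 on the log2 scale, and the 3 ligated MRL/MpJ hearts differed from theirs by -0.877 to -0.366. How many of all genes had such opposite orders was not counted. The strain-by-ligation interaction was -0.752 (SE 0.470, adjusted p = 1.0, limma), so the difference did not pass the test. Its partner Psme2 was on a probe set that also names Psme2b and was therefore no member. That probe set read 504.9 and 663.4 untreated, 591.2 and 651.2 at day 3, 506.7 and 694.9 at day 30, and 529.3 and 425.8 at day 60, and its lowest heart was MRL/MpJ at day 60, as for Psme1.

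The chaperones that assemble the 19S base were read at low signals. Psmd10, also called gankyrin, was at 82.4 and 148.6 untreated, 92.8 and 98.2 at day 3, 81.2 and 72.7 at day 30, and 161.3 and 83.0 at day 60, and reached the filter in 2 arrays only. Its interaction was -0.95 (SE 0.50, adjusted p = 1.0, limma). Psmd5 and Psmd9 stayed between 190.0 and 310.5 in all arrays. Psme3ip1 was at 188.4 and 308.5 untreated, 303.1 and 356.5 at day 3, 440.7 and 241.1 at day 30, and 392.7 and 253.1 at day 60. All 3 ligated C57BL/6 hearts were above their untreated heart, and MRL/MpJ was above its own at day 3 alone (interaction -1.02, SE 0.54, adjusted p = 1.0, limma).

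Between the strains, constitutive subunits were on the whole slightly higher in MRL/MpJ. Of the 31, 26 had a fitted difference above 0, with a median of 0.128 against -0.0176 for all genes. By time point the median was 0.168 untreated (22 of 31 above 0), -0.0425 at day 3 (13 of 31), 0.456 at day 30 (25 of 31) and -0.0393 at day 60 (13 of 31). The value was thus largest at day 30, where the C57BL/6 array stood apart, and near 0 at days 3 and 60. Leaving out each array in turn moved the fitted median between 0.027 and 0.205.

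Psmd14 and Psmd13, both of the 19S lid, had the largest strain differences among the members. Psmd14, the deubiquitinase that removes the ubiquitin chain from the substrate, was at 591.3, 625.4, 547.5 and 762.4 in the C57BL/6 hearts (untreated, days 3, 30 and 60) and at 710.5, 779.4, 964.4 and 1063.3 in the MRL/MpJ hearts. It was higher in MRL/MpJ at 4 of 4 time points, with overlap between the strains as a whole (0.45, SE 0.17, adjusted p = 0.556, limma). Psmd13 was at 335.6, 299.9, 227.3 and 440.7 in C57BL/6 and at 458.3, 339.7, 616.0 and 549.2 in MRL/MpJ, also higher at 4 of 4 (0.55, SE 0.23, adjusted p = 0.603, limma). Without the C57BL/6 array of day 30, or without the MRL/MpJ one, the Psmd13 difference was 0.30. On the dimmer probe set of Psmd13 the difference was 0.17, and MRL/MpJ was below C57BL/6 at day 3 (265.4 against 285.3). Only Psma2 shared this order, at 957.7, 899.8, 713.9 and 1031.8 against 1170.3, 977.5, 1339.0 and 1224.6, so 3 of 41 members (7.32%) did, against 8.53% of all genes. No member was lower in MRL/MpJ at 4 of 4 time points, against 9.15% of all genes. In no member did all 4 MRL/MpJ hearts lie above or below all 4 C57BL/6 hearts, which held for 1.82% and 2.37% of all genes. Psmb8 had the lowest strain difference (-0.23, SE 0.16, adjusted p = 0.766, limma), with the day 30 hearts at the same signal.

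For the interaction, Psma4 of the alpha ring and Psmb10 had the highest values. Psma4 was at 1277.2, 1035.4, 718.0 and 1147.8 in C57BL/6 and at 1010.2, 894.6, 1212.2 and 1271.8 in MRL/MpJ (0.55). Its C57BL/6 hearts were below their untreated heart at all 3 days, and its MRL/MpJ hearts were above theirs at days 30 and 60. Psmb10 was at 0.58 (SE 0.59). Both had an adjusted p of 1.0 in limma. At the other end among the subunits was Psmb3, a structural beta subunit outside the naming rule, at 661.5, 955.2, 1052.2 and 1149.9 in C57BL/6 and at 1136.8, 909.5, 1293.3 and 924.3 in MRL/MpJ (-0.78, adjusted p = 1.0, limma). All 3 ligated C57BL/6 hearts were above their untreated heart, and in MRL/MpJ only that of day 30 was. The dimmer probe set of Psmb3 read 536.6, 540.7, 777.2 and 576.1 in C57BL/6 and 739.3, 803.2, 728.7 and 739.8 in MRL/MpJ. There the MRL/MpJ heart was above untreated at day 3 and below it at day 30, the reverse of the brightest probe set.

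A probe set that was not the brightest gave the only strain call among the members' probe sets. The second probe set of Psmd6 read 233.1, 170.9, 163.6 and 390.5 in C57BL/6 (untreated, days 3, 30 and 60) and 28.8, 49.9, 47.5 and 50.8 in MRL/MpJ. The strains did not overlap, and in a fit over 12183 probe sets the difference was -1.82 (SE 0.24, adjusted p = 0.0338, limma). This probe set passed the signal filter on its 4 C57BL/6 arrays alone, and every MRL/MpJ value lay below the filter. Neither the order nor the call was therefore read as a strain difference of the gene. The share of all probe sets with such an order is not given here. The part of sequence differences between the strains in this probe signal was not tested. The brightest probe set of Psmd6 gave 0.21 in the other direction. Among 20 further probe sets of 15 member genes, the sign was the same as on the brightest one in 16 for the strain difference, 12 for all ligated hearts, 13 at day 3, 13 at day 30, 8 at day 60 and 14 for day 60 against day 3.

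Other genes of the pathway were taken from lists by function. Regulators of proteasome transcription had 8 kept genes and 0 called. Nfe2l1, the factor that raises proteasome genes when degradation is impaired, was at 1685.4, 1362.9, 1271.1 and 1315.7 in C57BL/6 (untreated, days 3, 30 and 60) and at 833.6, 743.1, 779.8 and 915.7 in MRL/MpJ. All 4 MRL/MpJ values lay below all 4 C57BL/6 values (-0.76, SE 0.17, adjusted p = 0.225, limma), which held for 2.37% of all genes. The constitutive subunits' median strain difference was 0.128, and a link between Nfe2l1 and the subunits was not tested. Proteasome-bound ubiquitin receptors and deubiquitinases had 7 kept and 0 called. In that list Ubqln4, a shuttle for ubiquitinated proteins, was at -0.64 over all ligated hearts (SE 0.23, adjusted p = 0.378, limma), with 754.0 in the untreated C57BL/6 heart, 438.8 in the MRL/MpJ one and 337.2 to 437.2 in ligated hearts. Usp14, a deubiquitinase that trims chains at the 19S particle, had a strain difference of -0.71. Assembly factors and the inhibitor Psmf1 had 6 kept and 0 called, with Pomp, which matures the 20S core, at 1009.2 to 1630.8.

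Muscle ubiquitin ligases had 4 kept genes and 0 called. Fbxo32, or atrogin-1, was at 579.4 and 388.0 untreated, 439.3 and 289.6 at day 3, 284.0 and 568.2 at day 30, and 604.7 and 834.4 at day 60, and its difference between day 60 and day 3 was 0.94 (adjusted p = 0.762, limma). MHC class I peptide loading, the step that uses immunoproteasome products, had 10 kept genes. Of these, 0 were called after ligation and 2 were called lower in MRL/MpJ, the class I genes H2-K1 (4050.9 to 6394.8 in C57BL/6, 255.6 to 502.2 in MRL/MpJ) and H2-D1 (2046.8 to 2845.7 against 269.7 to 437.4). These genes differ in sequence between strains, and the part of that in the probe signals was not tested. B2m, the light chain of class I, was above its strain's untreated heart in the ligated hearts, with 3276.1 and 2242.3 untreated and 2928.2 to 5920.0 ligated (0.71, adjusted p = 0.308, limma). Tap1, the peptide transporter next to Psmb9, was at 152.4 and 127.9 untreated, 262.1 and 187.1 at day 3, 204.1 and 108.8 at day 30, and 151.7 and 106.5 at day 60. Its highest pair was thus at day 3, as for Psmb9 in both strains, and not at days 30 and 60 as for Psmb8. Interferon regulators had 7 kept and 0 called. Irf1, an activator of immunoproteasome genes, was at 655.7, 830.6, 1135.7 and 943.0 in C57BL/6 (untreated, days 3, 30 and 60). In MRL/MpJ it was at 806.9, 911.7, 790.2 and 776.4. Every ligated C57BL/6 heart was thus above its untreated heart, and MRL/MpJ was above its own at day 3 only. Interferon-induced ubiquitin-like modifiers (3 kept) and ubiquitin with its activating and conjugating enzymes (2 kept) had 0 called.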

How the data were processed

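Left ventricular total RNA of 8 hearts was labelled with biotin and read on Affymetrix arrays, per the labels' protocols. The values are linear signal intensities as deposited by the authors, and the submitters' processing notes name MAS5. A trimmed mean of 247.2 to 248.4 per array (2% off each side) shows that arrays share a scaling, so no further normalization was applied. Of 22626 probe sets, 20380 name 1 gene by the platform annotation, 691 name several and 1555 none, and only the first were used, with the highest mean log2 signal per gene. Models were fitted with limma 3.58.1 in R 4.3.3 (lmFit, eBayes), additive in strain and time for 6 comparisons and with a strain-by-ligation term (2 residual degrees of freedom) for the interaction. The script was tested on simulated data.

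Values are printed in full for Psmb8, Psmb9, Psmb10, Psme1, Psme2, Psmb5, Psmb6 and Psmb7, and for the 2 highest and 2 lowest members of each comparison. For other lists, called genes and at most 3 others each were to be named. Members and lists were chosen with earlier results of these data known. Psmd1, Psma1, Psma2, Psmb3, Pomp and Irf1 were named after their values were seen. 16 alternatives were run: 8 of the processing and 8 leaving out 1 array each. Psmb11, with no probe set of its own, was not analysed here.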

Additional observations from a re-analysis of the deposited data

Results flagged for a closer look

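Psme1, the alpha subunit of the PA28 activator, was picked out because its 3 ligated C57BL/6 hearts lay above their untreated heart and its 3 ligated MRL/MpJ hearts lay below theirs. The change after ligation in MRL/MpJ minus that in C57BL/6 was -0.752 on the log2 scale (SE 0.47, adjusted p = 1.0 in limma's interaction term), so a difference between the strains was not shown. The MRL/MpJ untreated heart had the highest Psme1 signal of the 8 (1553.7), and all 3 MRL/MpJ differences share it. The smallest C57BL/6 change was 0.0152, from 1138.6 untreated to 1151.0 at day 30. The share of all genes with these opposite orders was not counted.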

How the results depend on the processing

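No member was called under any alternative, and the lowest adjusted p was 0.0508 (limma), for Psme4 and Psmd6 at day 30 without the MRL/MpJ array of that day. The number of genes called over the whole array did change: an intensity trend with robust variances gave 114 for all ligated hearts in place of 16, 84 for day 60 in place of 3, 32 for day 30 in place of 1, 24 for day 3 in place of 0 and 43 for the strain difference in place of 18. Without the MRL/MpJ array of day 30, 186 were called at day 30. Leaving out 1 array moved the constitutive median at day 30 from -0.316 to 0.094 and the immunoproteasome minus constitutive value at day 30 from -0.153 to 0.286. Over the same omissions Psme3ip1 ranged from -0.11 to 0.914 at day 3 and from -0.388 to 0.09 between strains, and Psme1 from -0.461 to 0.0992 between day 60 and day 3. The constitutive median ranged from -0.0488 to 0.145 at day 60, from -0.133 to 0.00343 over all ligated hearts, from -0.262 to -0.0385 at day 3 and from 0.0824 to 0.43 between day 60 and day 3. For the interaction it ranged from -0.171 to 0.0156, and it was 0.0354 with the mean of all probe sets of a gene. The immunoproteasome minus constitutive value between day 60 and day 3 was 0.0388 and ranged from -0.0787 to 0.169. It ranged from 0.0728 to 0.31 over all ligated hearts, from 0.174 to 0.474 at day 60 and from 0.118 to 0.412 for the interaction. Signs of single genes turned for Psme3ip1 at day 3 without the C57BL/6 untreated array (-0.11). They also turned for the Psme3ip1 strain difference without either day 30 array (0.09) or either day 60 array (0.0172), and for Psme1 between day 60 and day 3 without the C57BL/6 day 3 array (0.0371) or the MRL/MpJ day 60 array (0.0992). The cause was not tested. The interaction could not be fitted without either untreated array, and Psmb9 was lost under a filter on the mean signal. With 1 array per strain and time, replicate error could not be measured directly. The labels give no replicate numbers, and the additive model already compares strains within each time point and times within each strain.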
